A study of Mus musculus with 11 samples.

Results

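The genes described here are 8 genes of cholesterol synthesis and its control, measured in mouse lung on 11 microarrays: Hmgcs1, Idi1, Fdps, Sqle, Lss, Cyp51, Insig1 and Srebf2. They were chosen by name from the 19938 genes of the deposited table, with earlier results of these data known. All 8 had a row that carried their symbol alone. The samples were lung tissue of 129S1 mice. Combination mice were gavaged with aspirin at 4 mg/kg and triptolide at 1 mg/kg, aspirin mice with aspirin alone at 4 mg/kg, and triptolide mice with triptolide alone at 1 mg/kg, 5 days a week for 2 months. Aspirin inhibits the cyclooxygenases, and triptolide is a plant diterpenoid that blocks transcription. The fourth group is called untreated control in the labels, whereas the treatment text gives PBS buffer in its place, so it is not settled whether the controls were gavaged. There were 3 arrays each of combination, aspirin and triptolide lungs and 2 of control lungs. Age and sex are not given, and nothing says that replicates came from separate mice, so the p-values measure only the spread between these samples. The series title concerns suppression of lung cancer by both agents, and nothing given here says that these lungs held tumours.

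Cholesterol is built from acetyl-CoA through mevalonate, the isoprenoids and squalene. Its genes are switched on by sterol regulatory element-binding proteins when membrane sterol is low, and Insig proteins hold those factors in the endoplasmic reticulum when sterol is plentiful. In lung, cholesterol is part of membranes and of surfactant, which alveolar type II cells secrete and alveolar macrophages clear. How much of it this pathway makes in lung was not measured here. Of the 8 genes, Hmgcs1 encodes the synthase that makes HMG-CoA, Idi1 the isomerase that yields dimethylallyl pyrophosphate, and Fdps the farnesyl pyrophosphate synthase. Sqle encodes squalene epoxidase, Lss the cyclase that closes the sterol ring, and Cyp51 the lanosterol demethylase. Insig1 is the retention protein, and Srebf2 encodes the factor that favours cholesterol genes.

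Promoters of Hmgcs1, Insig1 and Lss are shown because the levels of these 3 genes correlated across the 11 arrays and were all lowest on the first combination array. Without that array, r between Hmgcs1 and Lss was 0.33. Srebf2, not shown, was also lowest there, at 10.66, and correlated with the 3 at r of 0.62 to 0.79. RefSeq's promoter table (GRCm38.p6, 250 bases before to 50 after the start it uses for each gene) held 6 of the 8 genes, without Fdps and Sqle. For Lss that start lies downstream of the one in RefSeq's gene table, so its window reaches further into the gene. Capitals mark matches on either strand to TCACNCCAC, a form of the sterol regulatory element, to CCAAT, the box bound by NF-Y, and to GGGCGG, the GC box bound by Sp1. No match overlapped another.
Hmgcs1, chr13:119690101-119690400, plus strand: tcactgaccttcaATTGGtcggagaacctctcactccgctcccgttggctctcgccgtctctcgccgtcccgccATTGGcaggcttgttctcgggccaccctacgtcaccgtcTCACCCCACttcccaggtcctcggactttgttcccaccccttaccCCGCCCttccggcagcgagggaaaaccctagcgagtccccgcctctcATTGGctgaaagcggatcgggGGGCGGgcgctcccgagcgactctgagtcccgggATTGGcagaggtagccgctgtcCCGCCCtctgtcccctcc
Insig1, chr5:28071162-28071461, plus strand: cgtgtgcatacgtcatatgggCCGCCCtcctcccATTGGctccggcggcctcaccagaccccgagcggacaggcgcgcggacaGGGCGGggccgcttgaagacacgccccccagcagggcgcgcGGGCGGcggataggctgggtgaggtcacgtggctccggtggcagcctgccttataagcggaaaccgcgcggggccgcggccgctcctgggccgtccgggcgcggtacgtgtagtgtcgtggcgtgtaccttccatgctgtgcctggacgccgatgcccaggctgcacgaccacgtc
Lss, chr10:76531355-76531654, plus strand: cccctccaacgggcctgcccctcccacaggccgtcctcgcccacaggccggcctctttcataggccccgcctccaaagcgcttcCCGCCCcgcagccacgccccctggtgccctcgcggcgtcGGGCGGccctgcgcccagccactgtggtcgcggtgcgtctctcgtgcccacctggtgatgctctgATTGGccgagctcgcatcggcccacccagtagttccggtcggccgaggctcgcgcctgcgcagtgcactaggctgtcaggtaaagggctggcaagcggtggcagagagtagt
The Hmgcs1 promoter held the sterol element form once, starting 137 bases before the gene start, and none of the other 5 promoters held it, against 1.24% of all 32851 promoters in the table. CCAAT was found in 6 of 6 and GGGCGG in 6 of 6, against 37.4% and 35.7% of all promoters. Hmgcs1 had 4 CCAAT matches and 3 GC boxes, Insig1 had 1 and 3, and Lss had 1 and 2. These matches describe letters in a 300-base window and were not linked to binding here.

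Before the results, several facts of the arrays bear on them. Combination 1 stood apart from the others, with a level of dividing-cell markers of 2.90 and of erythroid markers of 3.05, where a level is the mean log2 value of a list minus its mean over the 11 arrays. On the other 10 arrays these lists stood between -0.53 and 0.00, and between -0.82 and 0.69. Aspirin 2 had a neutrophil marker level of 2.91, against -0.65 to 0.57 on the other 10. Xist, the RNA of X inactivation, read 12.26 to 12.80 on combination arrays, a median of 6.86 on aspirin arrays, 12.32, 9.75 and 6.61 on triptolide arrays, and 11.98 and 12.07 in control. Sex-linked expression therefore moved with the aspirin group and differed within the triptolide group. Sftpc, the surfactant protein that marks alveolar type II cells, read 13.62 to 14.27 on every array, which fits the lung label. In whole lung, fewer cells of a type and less RNA per cell cannot be told apart.

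None of the 8 genes passed the test in any comparison. Differences are log2 values of the first-named group minus the second, fitted with limma across all 19938 genes, and a gene passed at a Benjamini-Hochberg adjusted p under 0.05. Over 6 pairwise comparisons, 0 of 48 tests of these genes passed, the smallest limma adjusted p was 0.262, and 4 lay under an unadjusted p of 0.05. Over all genes 0% passed in each comparison, so the absence of calls is not particular to the pathway, and an ordinary fit without moderation also called 0 genes. At an unadjusted p under 0.05, Hmgcs1 was counted in the combination against control and against triptolide, where 14.0% and 13.6% of all genes were, and Idi1 in aspirin against control, where 3.05% were. Cyp51 was counted in aspirin against triptolide, where 3.31% of all genes were. None of the 8 was counted in the combination against aspirin (11.6% of all genes), triptolide against control (2.81%) or the interaction of the drugs (3.42%).

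**Figure D1:**
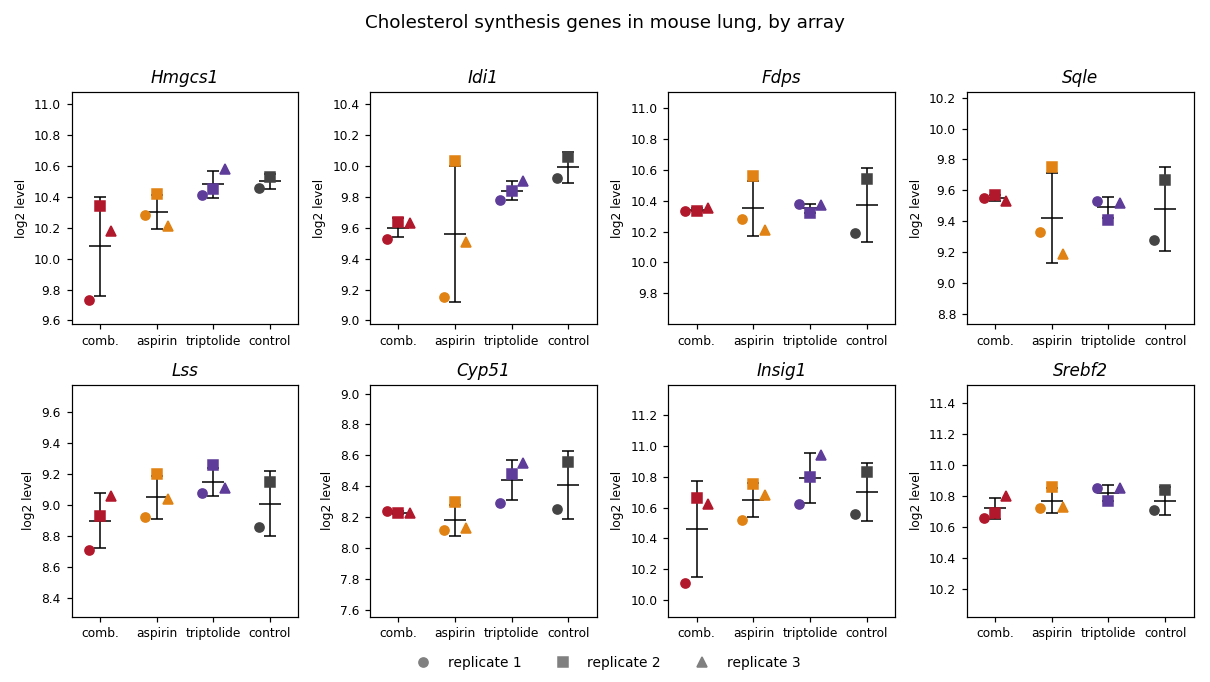
Log2 level (vertical axis, each panel spanning the same range) of the 8 genes on every array, with combination, aspirin, triptolide and control from left to right. Points are arrays with a symbol per replicate number, and bars are the group mean and SD (n = 3, control n = 2). Hmgcs1 is lowest on combination 1, at 9.73, and the 3 combination arrays of Cyp51 lie within 8.23 to 8.24.

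Hmgcs1, at the entry to the pathway, was lower on every combination array than on any triptolide or control array, with combination 1 the lowest. It read 9.73, 10.34 and 10.18 on the combination arrays, 10.28, 10.42 and 10.21 on the aspirin arrays, 10.41, 10.45 and 10.58 on the triptolide arrays, and 10.46 and 10.53 in control. Aspirin arrays also lay below control, while combination and aspirin arrays overlapped. Group means were 10.08 ± 0.32 with the combination, 10.30 ± 0.11 with aspirin, 10.48 ± 0.09 with triptolide (SD, n = 3 each) and 10.50 ± 0.05 in control (SD, n = 2). The difference was -0.41 ± 0.16 (SE) for the combination against control, a ratio of 0.751, with a 95% interval of -0.76 to -0.07. Its unadjusted p was 0.0228 and its limma adjusted p 0.262. Against triptolide it was -0.40 ± 0.14, with an adjusted p of 0.353. Without combination 1 these differences were -0.24 ± 0.10 and -0.22 ± 0.09, with limma adjusted p of 0.341 and 0.557.

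Idi1, the isomerase gene, varied most within a group. It read 9.53, 9.64 and 9.63 on the combination arrays, 9.15, 10.03 and 9.51 on the aspirin arrays, 9.78, 9.84 and 9.90 on the triptolide arrays, and 9.92 and 10.06 in control. Combination arrays lay below triptolide arrays, and triptolide arrays below control, whereas the aspirin arrays spanned the range of all other groups but for control 2. Differences from control were -0.39 ± 0.19 with the combination, -0.43 ± 0.19 with aspirin and -0.15 ± 0.19 with triptolide, with limma adjusted p of 0.412, 1 and 1. For aspirin the unadjusted p was 0.0493. Idi1 has 2 rows on the array with the same accessions, which differed by at most 0.18 on any array, and the row with the higher mean is given.

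Fdps and Sqle, the genes on either side of squalene synthase in the pathway, had close group means and a wide spread within the aspirin and control groups. Fdps read 10.33, 10.33 and 10.35 on the combination arrays, 10.28, 10.56 and 10.21 on the aspirin arrays, 10.38, 10.32 and 10.37 on the triptolide arrays, and 10.19 and 10.54 in control. Its 4 group means lay within 0.03 of each other, although its 11 arrays spanned 0.36. Sqle read 9.55, 9.57 and 9.53 on the combination arrays, 9.33, 9.75 and 9.19 on the aspirin arrays, 9.53, 9.41 and 9.52 on the triptolide arrays, and 9.28 and 9.67 in control. For both genes the highest and the lowest array of the whole set belonged to the aspirin or control group, and no pair of groups was separated. The combination against control differed by -0.03 for Fdps (95% interval -0.31 to 0.24) and by 0.07 for Sqle (-0.27 to 0.42). The signs of these small differences turned without 1 or the other control array, at 0.14 for Fdps without control 2 and -0.12 for Sqle without control 1.

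The sterol-forming enzymes Lss and Cyp51 had their highest group means with triptolide. Lss read 8.71, 8.93 and 9.06 on the combination arrays, 8.92, 9.20 and 9.04 on the aspirin arrays, 9.08, 9.26 and 9.11 on the triptolide arrays, and 8.86 and 9.15 in control. Its combination arrays lay just below its triptolide arrays, by -0.25 ± 0.12 on average (limma adjusted p 0.374), or by -0.16 ± 0.12 without combination 1, and overlapped the aspirin and control arrays. Cyp51 read 8.24, 8.23 and 8.23 on the combination arrays, 8.12, 8.30 and 8.13 on the aspirin arrays, 8.29, 8.48 and 8.55 on the triptolide arrays, and 8.25 and 8.56 in control. Combination arrays of Cyp51 lay below all triptolide and control arrays, but narrowly, with combination 1 at 8.24 and control 1 at 8.25. Its group means differed by -0.21 ± 0.10 from triptolide and -0.17 ± 0.12 from control, with limma adjusted p of 0.379 and 0.553. The difference from control was -0.02 without control 2. Aspirin against triptolide differed by -0.26 ± 0.10 in Cyp51, at an unadjusted p of 0.0318 and an adjusted p of 0.96, and those arrays overlapped.

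Of the regulators, Insig1 was lowest on combination 1, as Hmgcs1 was, and Srebf2 varied least of the 8 genes. Insig1 read 10.11, 10.66 and 10.62 on the combination arrays, 10.52, 10.75 and 10.68 on the aspirin arrays, 10.62, 10.80 and 10.94 on the triptolide arrays, and 10.56 and 10.83 in control. Combination 1 was the lowest array by a margin, and no pair of groups was separated. The combination differed from triptolide by -0.33 ± 0.15 (adjusted p 0.371), against -0.15 ± 0.12 without combination 1 (adjusted p 0.619). From control it differed by -0.24 ± 0.17, and by -0.06 ± 0.13 without that array. Srebf2 read 10.66, 10.69 and 10.80 on the combination arrays, 10.72, 10.86 and 10.73 on the aspirin arrays, 10.85, 10.77 and 10.85 on the triptolide arrays, and 10.71 and 10.84 in control. Its whole range was 0.20, its SD within groups was 0.07, and its 95% interval for the combination against control ran from -0.25 to 0.15, whereas the median SD within groups was 0.14 over all genes.

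**Figure D2:**
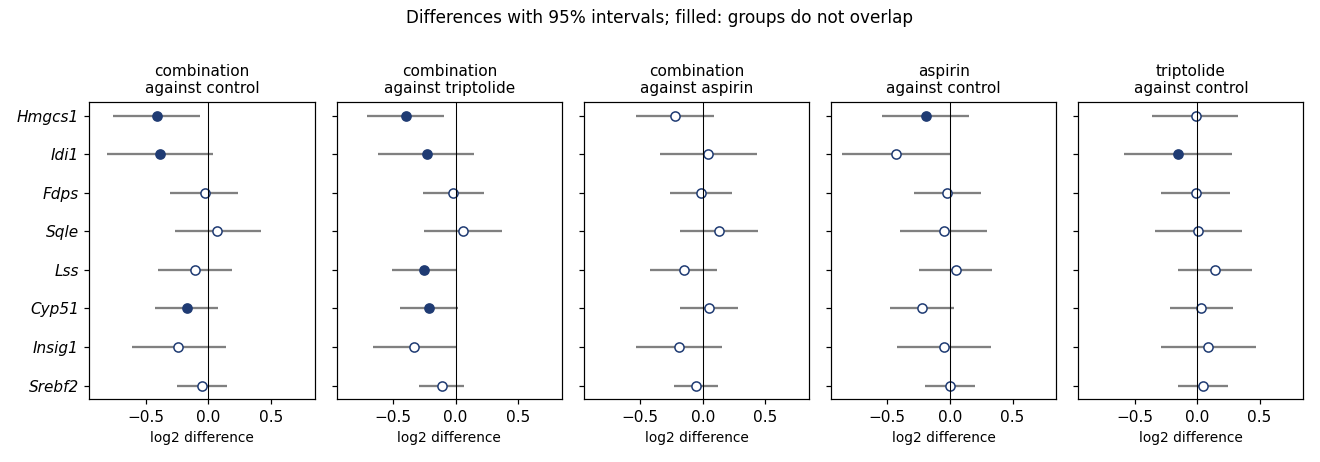
Log2 differences (points) with 95% intervals (lines) of the 8 genes in 5 comparisons, each first-named group minus the second, with filled points where the groups' arrays do not overlap. The intervals of Hmgcs1 leave out 0 in the first 2 panels, at -0.76 to -0.07 and -0.71 to -0.09, and no adjusted p passed.

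Set side by side, the combination lay below control in 7 of 8 genes with a median difference of -0.14, and below triptolide in 7 of 8 with a median of -0.22. These comparisons share the combination arrays. Over all genes the shares that lay lower were 47.2% and 46.7%, with medians of 0.01 and 0.02. Among the 4985 genes with the highest array signal, which hold 5 of the 8, those shares were 71.4% and 77.5% with medians of -0.14 and -0.14. The arrays' spread moved with this: the SD over genes was 1.592, 1.601 and 1.628 on the combination arrays, 1.637, 1.745 and 1.667 on the triptolide arrays, and 1.646 and 1.687 in control. After quantile normalization, which makes these spreads equal, 5 of 8 lay below control (median -0.11) and 6 of 8 below triptolide (median -0.17). Without combination 1, 7 of 8 lay lower in both, with medians of -0.04 and -0.15. With the level of genes on the Y chromosome as a covariate, 7 of 8 lay lower in both, with medians of -0.16 and -0.13. The comparison with control also turned on its 2 arrays: 4 of 8 lay lower without control 2, with a median of 0.00, and 8 of 8 without control 1, with a median of -0.29.

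Arrays were separated, with the combination lower, in 3 of the 8 genes against control (Hmgcs1, Idi1 and Cyp51), where 20.5% of all genes were, or 40.2% of the 4985 genes with the highest signal. Against triptolide they were separated in 4 (Hmgcs1, Idi1, Lss and Cyp51), where 9.53% of all genes were, or 21.3% of the 4985 genes with the highest signal. Aspirin arrays lay wholly below control in 1 gene, Hmgcs1, against 16.0% of all genes, and triptolide arrays in 1, Idi1, against 13.3%. Combination and aspirin arrays overlapped in all 8, where 15.3% of all genes were separated in either direction.

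For the drugs alone, aspirin lay below control in 6 of 8 genes with a median of -0.05, and triptolide in 3 of 8 with a median of 0.02. Over all genes these shares were 51.7% and 55.0%. Among the 4985 genes with the highest signal they were 65.8% and 50.4%, with medians of -0.05 and 0.00. After quantile normalization, aspirin lay below control in 5 of 8 (median -0.02) and triptolide in 4 of 8 (median 0.01). The directions of both drugs turned on the control arrays. Without control 2, aspirin lay lower in 3 of 8 (median 0.08) and triptolide in 1 of 8 (median 0.17), and without control 1 each lay lower in 8 of 8 (medians -0.21 and -0.08). Aspirin lay below triptolide in 8 of 8 with a median of -0.12, against 46.9% of all genes, or 64.8% of the 4985 genes with the highest signal, and in 7 of 8 after quantile normalization. Aspirin and triptolide arrays overlapped in all 8, where 9.89% of all genes were separated. The interaction of the drugs, the combination minus aspirin minus triptolide plus control, ran from -0.30 ± 0.18 for Lss to 0.20 ± 0.26 for Idi1, with limma adjusted p of at least 0.895. Differences between aspirin and control coincide with the change in sex-linked genes given above. Xist and the Y chromosome genes Eif2s3y, Uty and Kdm5d also differed in the combination, with a median of -2.22 against aspirin and -1.64 against triptolide. The level of Eif2s3y, Uty and Kdm5d was therefore tried as a covariate. With it, the median over the 8 genes was -0.16 for aspirin against control and -0.01 for triptolide against control. For the combination it was -0.16 against control, -0.13 against triptolide and -0.01 against aspirin.

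Within the aspirin and control groups, the same array was highest across the genes, whereas the lowest aspirin array was aspirin 1 in 5 and aspirin 3 in 3. Aspirin 2 was the highest aspirin array in 8 of 8 genes, and control 2 was above control 1 in 8 of 8. Over all genes these arrays were highest in their group in 32.5% and 49.5%, and over the 4985 genes with the highest signal in 56.0% and 66.6%. After quantile normalization the counts were 7 and 8 of 8, against 28.1% and 47.9% of those 4985. Combination 1 was the lowest of its group in 5 of 8, against 44.9% of all genes and 60.7% of those 4985. Triptolide arrays 1, 2 and 3 were the highest of their group in 2, 1 and 5 of the 8 genes. Aspirin 2 is the array with the neutrophil level of 2.91; their part in its values was not tested.

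**Figure D3:**
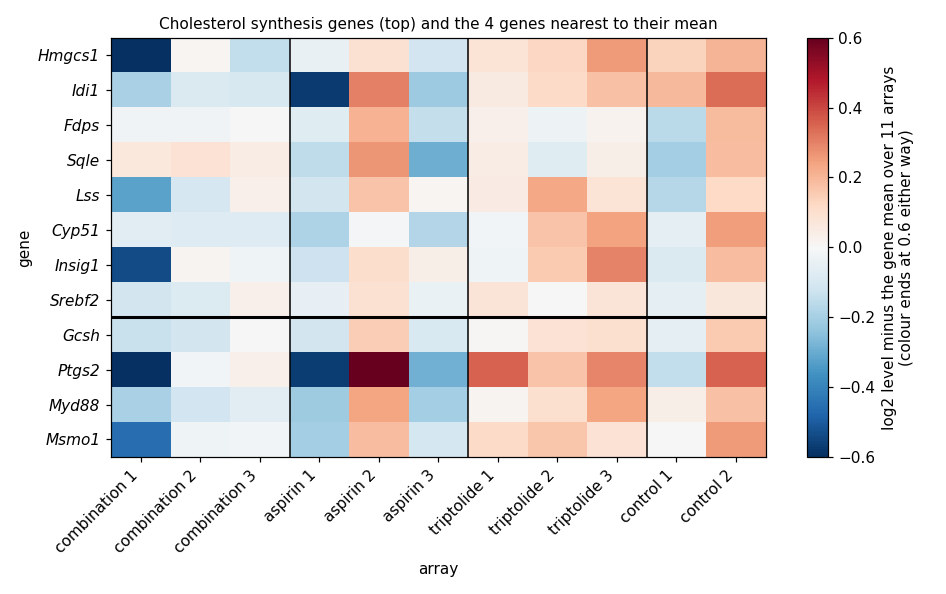
Heat map of log2 level minus the gene's mean over 11 arrays (colour), with genes as rows and arrays as columns, for the 8 genes and the 4 genes nearest to their mean. Aspirin 2 and control 2 are above the mean in nearly every row, and combination 1 is far below it in Hmgcs1, Insig1, Ptgs2 and Msmo1.

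Pairs of the 8 genes all correlated above 0 over the 11 arrays, with Pearson r from 0.09 to 0.92 and a median of 0.57 over 28 pairs. After the group means were taken out, r ran from 0.29 to 0.98. Correlations are descriptions over 11 arrays that share array-wide signal, and no p is given. Fdps and Sqle were the closest pair, at r = 0.92 and rho = 0.84, and at r = 0.90 without the 2 arrays farthest from the median of Fdps. Of the 17112 other genes ranked, none was nearer to either than its partner, and the nearest were Prr13 to Fdps and AI467606 to Sqle, at 0.82 each. Hmgcs1 and Insig1 followed at r = 0.90 and rho = 0.71, but at 0.66 without combination 1. Lss and Insig1 stood at 0.85, and at 0.71 without that array, while Hmgcs1 and Lss stood at 0.69 and 0.33. Hmgcs1 and Sqle were the least alike, at r = 0.09. The nearest genes outside the 8 were Ech1 to Hmgcs1 (r = 0.98), Akr1b8 to Lss (0.96), Mfn1 to Insig1 (0.96), Fam210a to Cyp51 (0.93), Nipsnap3b to Idi1 (0.92) and Ly6e to Srebf2 (0.88).

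**Figure D4:**
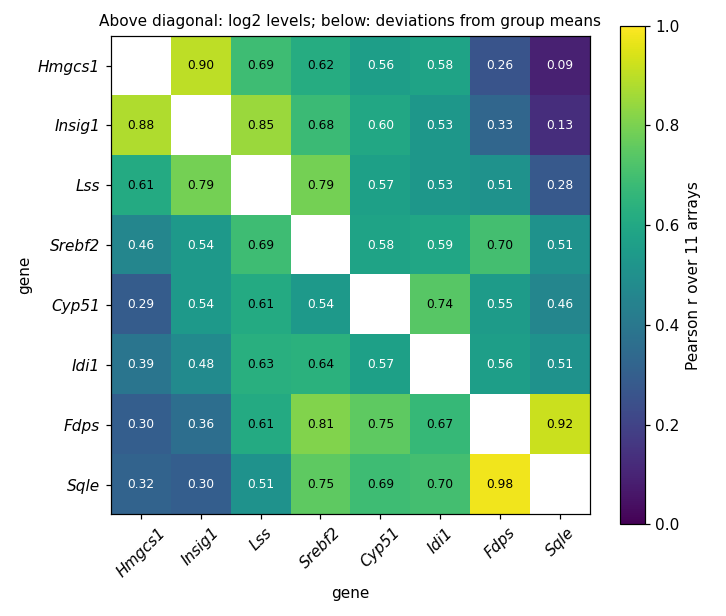
Matrix of Pearson r over 11 arrays between the 8 genes (both axes), with log2 levels above the diagonal and deviations from group means below it. Fdps with Sqle reads 0.92 and 0.98, Hmgcs1 with Insig1 0.90 and 0.88, and Hmgcs1 with Sqle 0.09 and 0.32.

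The genes nearest to the mean profile of the 8 included another enzyme of the same pathway. Msmo1, the sterol methyl oxidase that acts after Cyp51, ranked 4 of 17112 at r = 0.93, and 4 again without combination 1. It read 9.28, 9.71 and 9.72 on the combination arrays, 9.53, 9.92 and 9.63 on the aspirin arrays, 9.85, 9.90 and 9.82 on the triptolide arrays, and 9.74 and 9.99 in control. As in Hmgcs1, its combination arrays lay below all triptolide and control arrays, by -0.28 ± 0.14 and -0.29 ± 0.16, with limma adjusted p of 0.375 and 0.438. Without combination 1 these were -0.14 ± 0.12 and -0.15 ± 0.13. Gcsh, of the glycine cleavage system, ranked first at 0.95. Ptgs2, the inducible cyclooxygenase that aspirin inhibits, ranked next at 0.94, and Myd88, an adaptor of Toll-like receptors, next at 0.94. Ptgs2 read 9.30, 10.06 and 10.11 on the combination arrays, 9.51, 10.68 and 9.79 on the aspirin arrays, 10.43, 10.25 and 10.37 on the triptolide arrays, and 9.93 and 10.43 in control, so aspirin 2 was its highest array and combination 1 its lowest. The other 6 of the nearest 10 were Atp6v0a2, Irf2bpl, Cacul1, Apba1, Plaur and Blzf1, from 0.91 to 0.89, and the most opposed genes were Kcnip1, Bpi, Ceacam11, Zyg11a and Stac3, from -0.93 to -0.92. Without combination 1, Gcsh, Myd88, Irf2bpl and Blzf1 were again among the nearest 10, and Ptgs2 ranked 12 at 0.92.

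The other enzymes of cholesterol synthesis gave 12 measured genes of 15 listed, and 0 passed in any comparison. The combination lay below control in 9 of 12 with a median of -0.13 and below triptolide in 10 of 12 with a median of -0.13. Over all genes 47.2% and 46.7% lay lower, and of the 4985 genes with the highest signal 71.4% and 77.5%. Those 4985 had a median of -0.14 in both comparisons. Without combination 1 the medians of the 12 genes were -0.15 and -0.09. Aspirin lay below control in 10 of 12 with a median of -0.09, against 51.7% of all genes and 65.8% of those 4985. Sc5d, the lathosterol desaturase, differed by -0.43 ± 0.18 for the combination against control (limma adjusted p 0.326), or by -0.21 ± 0.11 without combination 1. In the fit without that array, Sc5d differed from control by -0.39 ± 0.10 with aspirin alone and -0.16 ± 0.10 with triptolide alone. Mvk, mevalonate kinase, differed by -0.24 ± 0.09 for the combination against control (0.289). Fdft1, the squalene synthase that acts between Fdps and Sqle, differed by -0.24 ± 0.12 against control and by -0.29 ± 0.11 against triptolide (0.412 and 0.353). Lbr, a sterol reductase and lamin receptor named after its values were seen, read 11.45 on combination 1 and 9.89 to 10.39 on the other 10 arrays. The correlation of these 12 genes with the mean of the 8 had a median of 0.53, against -0.08 over all genes but the 8. Other lists stood as high, with medians of 0.64 for alveolar type II markers, 0.56 for fatty acid synthesis, 0.53 for alveolar macrophage markers and 0.51 for uptake and transport.

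Genes that control the sterol response gave 6 of 8 measured, with 5 lower in the combination than in control and a median of -0.15. In that comparison 47.2% of all genes lay lower, and 71.4% of the 4985 genes with the highest signal. Insig2, the second Insig gene, differed by -0.28 ± 0.13 (limma adjusted p 0.345) and Mbtps1, the protease that cleaves the factors in the Golgi, by -0.25 ± 0.10 (0.296). Without combination 1 these were -0.16 ± 0.10 and -0.16 ± 0.08. Scap, their escort from the endoplasmic reticulum, differed by -0.12 against control and by -0.18 ± 0.08 against triptolide (0.365). Srebf1, which favours fatty acid genes, differed by -0.17 ± 0.11 against control (0.548), or by -0.08 ± 0.10 without that array. None passed.

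Uptake and transport gave 11 measured genes of 13. Of these, 10 lay lower in the combination than in control, with a median of -0.27, or of -0.09 without combination 1. The share lower in that comparison was 47.2% of all genes and 71.4% of the 4985 genes with the highest signal. Mylip, an LXR target that degrades lipoprotein receptors, differed by -0.35 ± 0.11 (limma adjusted p 0.175). Npc1, which exports cholesterol from lysosomes, differed by -0.51 ± 0.20 (0.277), or by -0.26 ± 0.11 without combination 1. In the fit without that array, Mylip differed from control by -0.32 ± 0.10 with triptolide alone and -0.16 ± 0.10 with aspirin alone. Its combination against triptolide differed by -0.09 ± 0.10 there. Npc1 differed from control by -0.05 ± 0.10 with triptolide and -0.22 ± 0.10 with aspirin. Of the sterol efflux and oxysterol genes, 12 of 14 were measured and 8 lay lower, with a median of -0.25, or of -0.14 without combination 1. Nr1h3, which encodes the oxysterol receptor LXR alpha, had the smallest p of the sterol and lipid lists for the combination against control, at -0.52 ± 0.13 and an adjusted p of 0.11, with 9.13, 9.31 and 9.55 on the combination arrays and 9.82 and 9.87 in control. The combination arrays of Nr1h3 also lay below all triptolide arrays, and overlapped the aspirin arrays. Abcg1, a cholesterol exporter, differed by -0.50 ± 0.18 (0.24), or by -0.31 ± 0.14 without combination 1. In the fit without that array, Abcg1 differed from control by -0.20 ± 0.12 with each single drug. Nr1h3 differed there by -0.27 ± 0.11 with aspirin and -0.14 ± 0.11 with triptolide.

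Fatty acid synthesis genes gave 14 of 14 measured, with 12 lower in the combination than in control and a median of -0.27. Of all genes 47.2% lay lower there, and of the 4985 genes with the highest signal 71.4%. Scd2, a desaturase, differed by -0.60 ± 0.20 (limma adjusted p 0.213) and Fads2, another, by -0.33 ± 0.10 (0.177), while Elovl6, an elongase, lay higher by 0.41 ± 0.13 (0.193). This list stood at -0.49, 0.02 and 0.10 on combination 1, 2 and 3, and without combination 1, 8 of 14 lay lower, with a median of -0.08. The isoprenoid branch, which makes the lipid anchors of proteins and dolichol, gave 10 of 11 measured, with 9 lower and a median of -0.09, or of -0.06 without combination 1. Fntb, a farnesyltransferase subunit, differed by -0.29 ± 0.11 (0.268). No gene of these lists passed in any comparison.

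**Figure D5:**
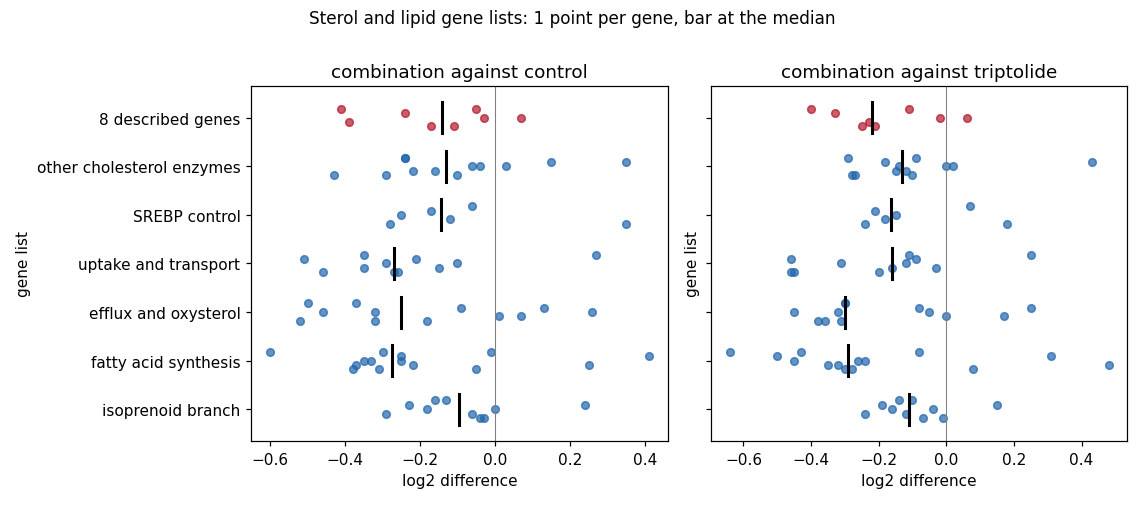
Log2 difference of each gene (points) in 7 sterol and lipid lists (rows) for the combination against control and against triptolide, with a bar at each list's median. Medians lie between -0.09 and -0.27 against control and between -0.11 and -0.30 against triptolide, and the 8 described genes stand at -0.14 and -0.22.

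Markers of lung cell types also stood at other levels in the combination group, although none passed in any comparison. The alveolar type II list was lower in the combination than in control in 10 of 10 genes (median -0.37) and than in triptolide in 10 of 10 (median -0.48). Without combination 1 it was lower in 7 of 10 (median -0.16) and in 10 of 10 (median -0.27). With aspirin alone it was lower than control in 10 of 10 (median -0.11), and with triptolide alone in 1 of 10 (median 0.11). Its level was -0.72, -0.09 and -0.05 on the combination arrays, 0.13, 0.50 and 0.04 on the triptolide arrays, and 0.07 and 0.18 in control. Alveolar macrophage markers were lower than in triptolide in 9 of 9 genes (median -0.22), at -0.59, 0.11 and -0.03 on the combination arrays, 0.24, 0.15 and -0.04 on the triptolide arrays. Without combination 1 they were lower than in triptolide in 3 of 9, with a median of 0.04. Against control they were lower in 7 of 9 (median -0.17), and in 5 of 9 without combination 1 (median -0.05). Endothelial markers were lower in 7 of 7 genes against control (median -0.89) and against triptolide (median -0.45). Without combination 1 both stayed at 7 of 7 (medians -0.76 and -0.31). Endothelial markers were also lower than control in 7 of 7 with triptolide alone (median -0.43) and with aspirin alone (median -0.20). Against control, alveolar type I markers were lower in 7 of 7 (median -0.58) and fibroblast markers in 6 of 6 (-0.30). Without combination 1 these were 7 of 7 (-0.37) and 5 of 6 (-0.11). The fibroblast level was -0.62, 0.05 and 0.12 on the combination arrays. Higher than control were B and plasma cell markers in 5 of 5 (1.02) and ciliated markers in 5 of 5 (0.44). Their medians without combination 1 were 0.62 and 0.68. Ciliated markers were also higher in 5 of 5 with triptolide alone (0.25) and aspirin alone (0.21). T and natural killer cell markers were higher in 6 of 6 (0.19, or 0.12 without combination 1). So were dividing-cell markers in 6 of 6 (1.14, or 0.10 without combination 1). The part of these cell types in the values of the cholesterol genes was not tested.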

How the data were processed

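Lung RNA from 11 samples was measured on Affymetrix mouse gene arrays. The deposited values are log2 expression levels, 1 per row and array, over 35556 rows. RMA and Partek appear in the submitters' processing notes with no version, role or setting. Array medians lay between 8.135 and 8.254. No detection calls were used, and precision is limited by the number of arrays. Gene names came from GEO's annotation of the platform: 21789 had 1 symbol, 1621 several and 12146 were unnamed here. The row with the highest mean stood for each of 999 genes with several rows, which left 19938. The test was limma 3.58.1 (R 4.3.3) over all 4 groups, with 7 residual and 3.68 prior degrees of freedom and no filter, two-sided, with Benjamini-Hochberg adjustment. The fit was tested on simulated data. Named genes were the 8, the sex-linked genes, Srebf1, Scap and Insig2, up to 3 per sterol or lipid list and comparison with the smallest p, and the nearest and most opposed genes by correlation, leaving out predicted genes, small RNAs and chemosensory receptors. Some genes of the lists were not analysed here. The 8 genes, the lists and the tests were chosen with earlier results of these data known. Alternatives were other normalizations, a filter, other variance models, array weights, a replicate block, a Y-linked covariate, other rows and leaving out each array.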

Additional observations from a re-analysis of the deposited data

How the results depend on the processing

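Of the 8 genes, 0 passed under each setting tried except array weights, which gave 14 passing tests over all comparisons. Of these, 7 were in aspirin against triptolide, 3 in aspirin against control, 1 (Sqle) in the combination against aspirin and 3 in the combination against triptolide, namely Hmgcs1 at -0.28, Cyp51 at -0.29 and Insig1 at -0.27 (adjusted p 0.0206, 0.0261 and 0.0495). That estimate stopped before converging and gave aspirin 3 a weight of 43.46; a gene-by-gene estimate, chosen after seeing the data, gave 1, Idi1 in aspirin against control. Leaving out any 1 array gave 0 to 0. Directions of the 8 genes held in the combination against control and against triptolide but for these. Quantile normalization gave 0.06 for Fdps and 0.06 for Srebf2 against control, and 0.08 for Fdps against triptolide. Leaving out 1 array moved the difference from control between -0.20 and 0.14 in Fdps, -0.12 and 0.27 in Sqle, -0.25 and 0.04 in Lss, and -0.12 and 0.01 in Srebf2, the extremes being those without control 1 and without control 2; the cause was not tested.

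Counts over all genes, 0 in each comparison, moved more. For the combination against control they were 83 with arrays centred on their medians, 3 with quantile normalization, 66 without genes of low signal, 56 with a trended robust prior, 152 with the replicate block and 96 with the Y-linked covariate. For the combination against aspirin, median centring, quantile normalization, the filter and the trended prior gave 1 each and the fit of those groups alone 2, which gave 4 for aspirin against control. Array weights gave 3838, 337, 2935, 6479, 4959, 6862 and 2139 for combination, triptolide and aspirin against control, combination against aspirin and triptolide, aspirin against triptolide, and the interaction; gene by gene they gave 1717, 10, 526, 873, 1, 137 and 16. Leaving out 1 array gave 0 to 896, 0 to 3, 0 to 4, 0 to 704, 0 to 24, 0 to 0 and 0 to 6 in the same order, with 896, 704 and 24 without combination 3, and 3, 4 and 6 without triptolide 1.

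Replicate numbers are shared between groups but nothing says what they mark. Deviations of same-numbered arrays correlated above 0.1 in 6 of 15 pairs, with a median of 0.08. Those of differently numbered arrays did so in 4 of 30, with a median of -0.07. Part of this contrast is built in, because deviations within a group offset each other. Control 1 and control 2, for example, correlated with aspirin 1 at 0.32 and -0.32. Whether the numbers mark a shared step is therefore not settled, and the main fit did not take them as pairs. With the replicate block 0 of the 8 genes passed.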
